A study of Mus musculus with 5 samples.

Results

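The 44 genes described here encode members of the nuclear receptor superfamily. They were taken by name from the mouse mm9 annotation (GENCODE vM1), where 22350 protein-coding genes lie on chromosomes 1 to 19 and X, and all 44 names were found. The start site (the annotated 5′ end of the gene) and the gene body of each were set against the intervals of H3K27me3 enrichment in 3 peak lists. The rule used gene names and no measured value.

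The lists came from chromatin immunoprecipitation followed by sequencing (ChIP-Seq) of H3K27me3 in mouse embryonic fibroblasts (MEFs). The cells were derived from a mouse embryo with loxP sites in Eed, which encodes a core subunit of Polycomb Repressive Complex 2 (PRC2), so all 3 groups carried the floxed and undeleted allele. They were transduced with lentivirus for stable expression of H3.3 K27R (the K27R list), H3.3 K27M (the K27M list) or human EZHIP (the EZHIP list), with 1 library per group. The parental floxed cells and a line that was 1 clone with Eed removed by Cre recombinase were not analysed here. H3.3 K27R, with arginine at the residue that PRC2 methylates, served as the reference, and a K27M or EZHIP peak is called a residual peak below. The lists held positions without heights or read counts, so depth was unknown, no test between groups was possible, and all values describe these 3 libraries.

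Nuclear receptors are transcription factors with a zinc finger DNA-binding domain and a pocket that, in many of them, binds a steroid, retinoid, thyroid hormone, fatty acid or bile acid. They recognise variants of the hexamer AGGTCA alone or as pairs, recruit corepressors or coactivators according to ligand, and in fibroblasts and their descendants take part in fat cell formation, glucocorticoid responses and retinoid signalling. H3K27me3 is the histone mark that PRC2 deposits over silent developmental genes, often starting from CpG islands (stretches rich in unmethylated CG dinucleotides) and spreading outward into broad domains. EZHIP of posterior fossa ependymoma and the K27M histone of diffuse midline glioma both inhibit PRC2.

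The sequences below lie immediately before start sites on which the results turn, read from the mm9 genome along the strand of the gene, with CG dinucleotides in capitals. Nr2e1 and Ppara had the widest EZHIP peaks over a start site. The window of Nr2e1 (chr10:42303439-42303627, minus strand) was shortened to leave out an annotated exon, and that of Ppara was chr15:85565163-85565412 (plus strand).
Nr2e1: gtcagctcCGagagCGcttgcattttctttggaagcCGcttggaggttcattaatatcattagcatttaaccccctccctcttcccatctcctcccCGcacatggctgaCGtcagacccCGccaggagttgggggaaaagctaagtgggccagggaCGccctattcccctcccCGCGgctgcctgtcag
Ppara: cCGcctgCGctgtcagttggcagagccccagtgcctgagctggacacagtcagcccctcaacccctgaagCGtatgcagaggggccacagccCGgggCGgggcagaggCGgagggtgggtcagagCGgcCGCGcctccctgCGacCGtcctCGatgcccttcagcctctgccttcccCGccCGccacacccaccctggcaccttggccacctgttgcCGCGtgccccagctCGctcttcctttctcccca
Pparg (chr6:115310989-115311238, plus strand) and Esrrb (chr12:87701817-87702066, plus strand) had wide K27R regions and no residual peak over the 5′ start.
Pparg: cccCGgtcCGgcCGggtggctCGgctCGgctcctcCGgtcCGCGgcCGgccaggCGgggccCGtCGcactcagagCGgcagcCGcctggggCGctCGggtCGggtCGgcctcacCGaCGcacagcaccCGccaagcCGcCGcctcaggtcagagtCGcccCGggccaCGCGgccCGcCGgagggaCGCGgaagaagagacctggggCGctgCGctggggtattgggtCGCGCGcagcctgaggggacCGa
Esrrb: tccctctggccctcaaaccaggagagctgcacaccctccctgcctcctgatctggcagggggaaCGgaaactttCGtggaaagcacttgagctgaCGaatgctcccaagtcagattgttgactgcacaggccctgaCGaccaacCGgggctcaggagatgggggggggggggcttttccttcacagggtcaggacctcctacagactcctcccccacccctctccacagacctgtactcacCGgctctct
Rxrg (chr1:169528265-169528514, plus strand) kept residual peaks far from any CpG island.
Rxrg: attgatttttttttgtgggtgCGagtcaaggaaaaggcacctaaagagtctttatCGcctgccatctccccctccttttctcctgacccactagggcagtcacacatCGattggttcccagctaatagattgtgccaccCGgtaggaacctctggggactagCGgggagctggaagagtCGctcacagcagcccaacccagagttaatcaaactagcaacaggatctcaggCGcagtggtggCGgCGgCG
Esrrg had a K27M peak over its 5′ start (chr1:189432420-189432669, plus strand) and an EZHIP peak over the start of the transcript Esrrg-001 (chr1:189821456-189821705, plus strand).
Esrrg, 5′ start: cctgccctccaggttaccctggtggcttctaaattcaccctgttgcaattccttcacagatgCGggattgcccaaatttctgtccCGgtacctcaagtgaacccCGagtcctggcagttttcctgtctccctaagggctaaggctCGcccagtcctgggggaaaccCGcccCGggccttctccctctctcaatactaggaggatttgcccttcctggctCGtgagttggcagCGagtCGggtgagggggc
Esrrg-001: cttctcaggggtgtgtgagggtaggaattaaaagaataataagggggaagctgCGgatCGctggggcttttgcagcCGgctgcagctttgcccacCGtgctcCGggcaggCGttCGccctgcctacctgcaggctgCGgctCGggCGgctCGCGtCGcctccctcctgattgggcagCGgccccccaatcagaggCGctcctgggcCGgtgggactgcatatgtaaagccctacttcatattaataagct
Rarb, which was in no list, is shown at its 5′ start (chr14:17651382-17651631, minus strand) and at the inner start of the transcript Rarb-202 (chr14:17407987-17408236, minus strand).
Rarb, 5′ start: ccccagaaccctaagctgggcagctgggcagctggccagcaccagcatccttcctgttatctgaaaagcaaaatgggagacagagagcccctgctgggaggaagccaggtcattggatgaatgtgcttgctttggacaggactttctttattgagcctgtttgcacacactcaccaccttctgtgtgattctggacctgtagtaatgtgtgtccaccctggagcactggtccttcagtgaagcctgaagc
Rarb-202: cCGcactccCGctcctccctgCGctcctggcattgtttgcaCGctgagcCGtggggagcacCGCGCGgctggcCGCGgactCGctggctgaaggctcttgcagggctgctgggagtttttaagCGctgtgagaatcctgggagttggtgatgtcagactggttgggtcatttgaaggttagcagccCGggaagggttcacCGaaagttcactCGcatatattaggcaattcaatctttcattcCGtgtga
The windows held 37 CG dinucleotides for Pparg, 17 for Ppara, 16 each for Esrrg-001 and Rarb-202, 10 for Rxrg, 9 each for Nr2e1 (in 189 bases) and the 5′ start of Esrrg, 6 for Esrrb and 0 for the 5′ start of Rarb. The window richest in CG dinucleotides, that of Pparg, was in neither residual list.

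The lists held 12845 peaks covering 582 Mb for K27R, 3736 peaks covering 51.0 Mb for K27M and 4992 peaks covering 36.5 Mb for EZHIP. The fibroblast label was checked by marker genes, where an H3K27me3 peak is the mark of a silent gene. Of 10 fibroblast markers, 1 (Pdgfra) had a start site in the K27R list, against 30.1% of all protein-coding genes. The Pdgfra start was also in both residual lists. The K27R counts were 3 of 5 epithelial, 2 of 4 endothelial, 3 of 5 blood and 4 of 5 neural markers. These marker lists are short. With 1 library per group, an effect of the transgene and a difference between lines or libraries cannot be told apart.

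Start sites of 16 of the 44 receptor genes lay in K27R peaks (36.4%, against 30.1% of all protein-coding genes). In the K27M list 11 receptor start sites were found (25.0%, against 9.02% of all genes), and in the EZHIP list 8 (18.2%, against 7.73%). All 44 genes are autosomal, and over autosomal genes alone the shares were 28.2%, 8.94% and 7.96%. The K27R share of the receptors was thus near the background, and their residual shares were above it.

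The 44 genes fell into 4 classes. A group of 8 had a start site in both residual lists (6.60% of all genes did): Nr3c2, Pgr, Rxrg, Thrb, Ppara, Rora, Nr2e1 and Nr5a2. In K27M and not EZHIP peaks were 3 (2.41% of all genes): Esrrg, Nr2f1 and Nr5a1. The reverse, EZHIP and not K27M, was found for 0 receptors (1.13% of all genes). K27R peaks alone held 5 (20% of all genes): Esrrb, Pparg, Nr1i3, Rorb and Nr0b2. The start sites of the other 28 were in no list (69.8% of all genes). Among the 16 receptors with a start site in K27R peaks, 11 were also in K27M (68.8%), 8 in EZHIP and the same 8 in both lists, and 5 (31.2%) were in neither. Over all genes with a start site in K27R peaks, 29.9% were in K27M, 25.6% in EZHIP, 21.9% in both and 66.5% in neither. Of the 11 receptor starts in K27M peaks, 72.7% were also in EZHIP peaks, against 73.3% over all genes.

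**Figure D1:**
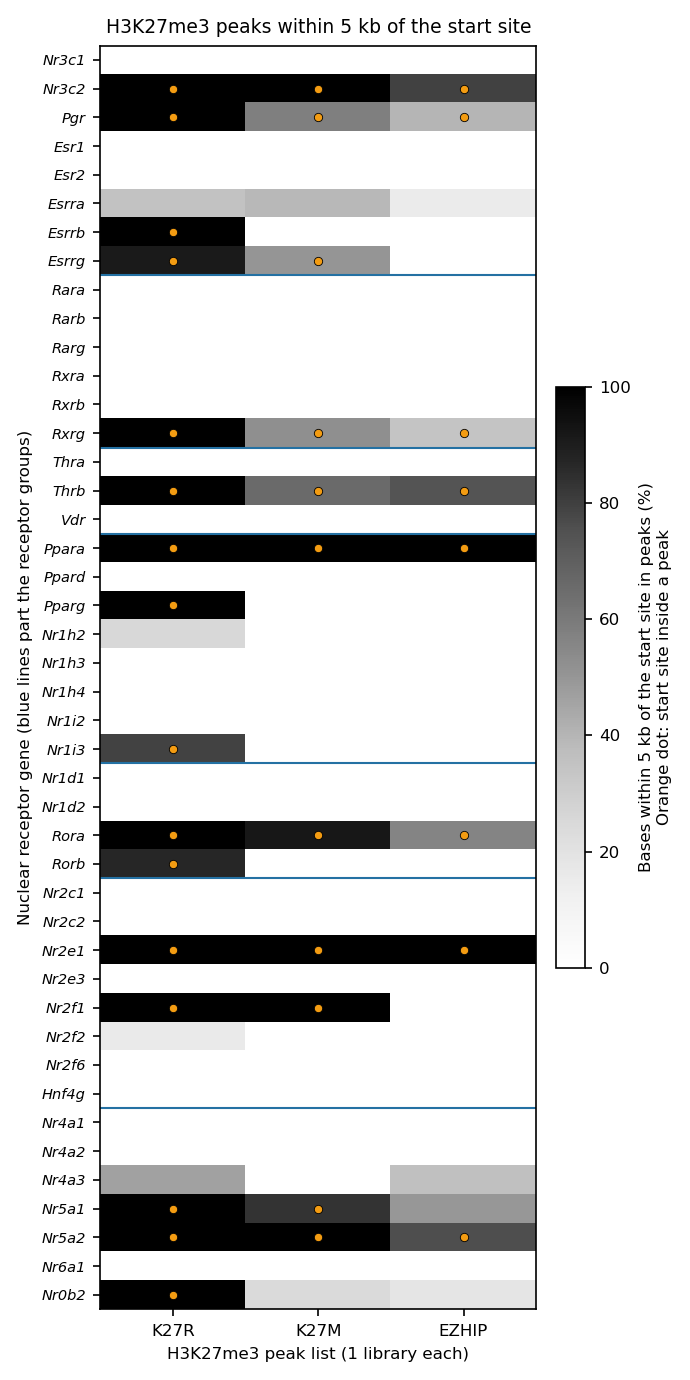
Share of the bases within 5 kb of each start site that lay in peaks (grey scale, %), for the 44 receptor genes (rows, grouped by role) and the K27R, K27M and EZHIP lists (columns, 1 library each), with an orange dot where the start site itself was in a peak. Dark K27R cells turn white in both residual columns for Esrrb, Pparg, Nr1i3 and Rorb, and stay black in all columns for Ppara and Nr2e1.

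The median width of the peaks over receptor start sites was lower than that over all start sites in each list, with wide intervals. It was 59.5 kb for K27R (n = 16, interval of at least 95% from order statistics 18.0 to 180.0 kb), against 96.8 kb over all genes. The median was 10.8 kb for K27M (n = 11, 5.2 to 42.6 kb) against 11.8 kb, and 7.7 kb for EZHIP (n = 8, 3.4 to 40.4 kb) against 8.4 kb. The all-gene medians took 1 width per gene, so a peak over several start sites was counted for each. They also took in genes of chromosome X, where no receptor of this set lies. With peaks of at least 5000 bp, which left out those of Pgr and Rxrg, the EZHIP median of the receptors was 16.1 kb. The intervals of the receptors took in the all-gene median in each list. For EZHIP the interval was the full range of the 8 widths, so it could hardly have missed that median. Neighbouring peaks up to 10000 bp apart were found in all 3 lists, and joining them widened 1 receptor peak in each, to 256.4 kb at Nr5a2 (K27R), 95.8 kb at Nr2e1 (K27M) and 57.4 kb at Ppara (EZHIP). The intervals treat genes as independent and cover neither counting error in the calls nor variation between cell lines.

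**Figure D2:**
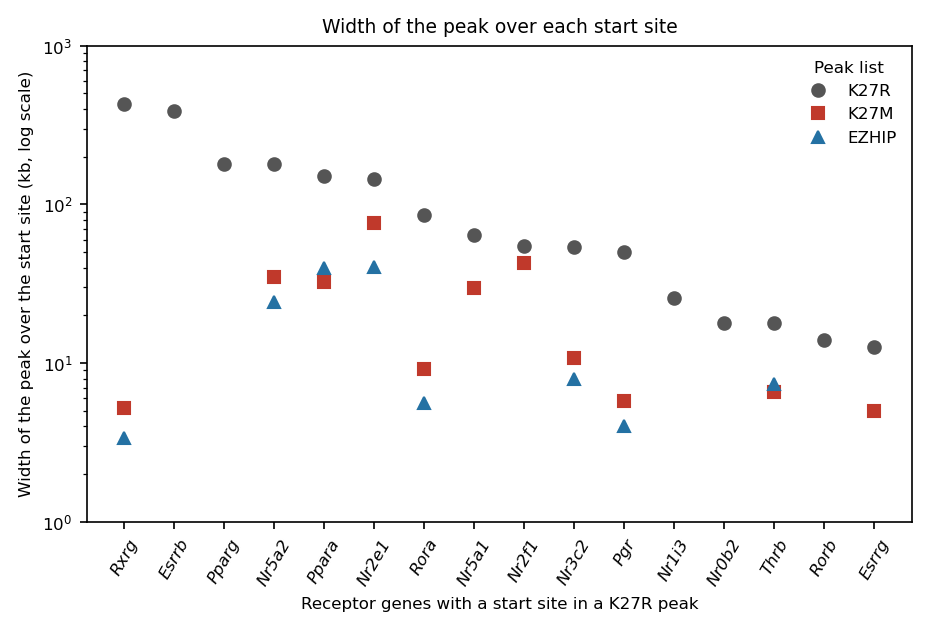
Width in kb (log axis) of the peak over the start site of each of the 16 receptor genes in the K27R list, ordered by K27R width, with a circle for K27R, a square for K27M and a triangle for EZHIP. A K27R region of 425.4 kb at Rxrg stood over residual peaks of 5.2 and 3.4 kb, whereas at Nr2f1 the K27R peak was 54.6 kb and the K27M peak 42.6 kb.

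The steroid and estrogen-related receptors comprised 8 genes, 4 of which had a start site in K27R peaks. Nr3c2 encodes the mineralocorticoid receptor, which binds aldosterone and glucocorticoids. Its start site lay in a K27R peak of 53.6 kb, a K27M peak of 10.8 kb (chr8:79418001-79428800, positions in mm9) and an EZHIP peak of 8.0 kb (chr8:79420401-79428400). The EZHIP peak was wholly inside the K27M peak, and both were centred close to the start, from 5.3 kb before to 5.5 kb after it for K27M and from 2.9 kb before to 5.1 kb after it for EZHIP. Of 7 annotated starts of Nr3c2, 6 were in K27R peaks and 5 in each residual list. Pgr, the progesterone receptor, gave a like picture with peaks of 50, 5.8 and 4.0 kb in the K27R, K27M and EZHIP lists, the last at chr9:8899201-8903200. All 4 of its starts, within 1.0 kb of each other, were in all 3 lists. The K27R peaks were 4.96-fold (Nr3c2) and 8.62-fold (Pgr) as wide as the K27M peaks, and 6.70-fold and 12.5-fold as wide as the EZHIP peaks.

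The estrogen-related receptors are orphan receptors that act on mitochondrial and pluripotency genes, and their members differed in which start carried a residual peak. Esrrg has 5 annotated starts in mm9, and all were in K27R peaks. The 3 starts at its 5′ end lay in a K27R peak of 12.6 kb and a K27M peak of 5.0 kb (chr1:189431201-189436200), with no EZHIP peak there. The starts of Esrrg-001 and Esrrg-002, 389.0 kb downstream, lay in an EZHIP peak of 1.6 kb, with no K27M peak there. The 2 residual lists thus marked different starts of the same gene, and a count by the 5′ end gives Esrrg to K27M alone. The windows printed above for these starts held 9 and 16 CG dinucleotides, and a CpG island covered the inner starts and lay 207 bp from the 5′ start. Esrrb, a pluripotency factor, had its 5′ start in a K27R region of 385.2 kb, which covered the whole gene and the start of its neighbour Vash1. The 5′ start was in neither residual list. At 60.5 kb downstream, the starts of Esrrb-002, Esrrb-003 and Esrrb-201 lay in a K27M peak of 22.2 kb and an EZHIP peak of 21.0 kb. The EZHIP list held 7 peaks inside this region and the K27M list 3, covering 12.4% and 7.89% of it. In Esrra the start site was in no list, but peaks began upstream of it, at 1.5 kb for K27R (15.4 kb wide), 1.1 kb for K27M (13.8 kb) and 3.5 kb for EZHIP (3.4 kb).

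Esr1, the estrogen receptor alpha, also differed between its starts, with no peak called over its 5′ end. The 6 starts within 0.5 kb of its 5′ end were in no list, and the nearest K27R peak was 20.9 kb away. Inside the gene, 7 K27R peaks covered 64.8% of its 394.0 kb. At the start of Esr1-010, 101.1 kb downstream, a CpG island lay in a K27R peak of 112.0 kb, a K27M peak of 1.8 kb and an EZHIP peak of 6.4 kb. The EZHIP peak also took in the start of Esr1-004 and Esr1-007 at 98.6 kb. Esr2, the estrogen receptor beta, and Nr3c1, the glucocorticoid receptor, had no peak in the gene body in any list. Their nearest K27R peaks were 20.2 kb and 421.2 kb from the start.

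**Figure D3:**
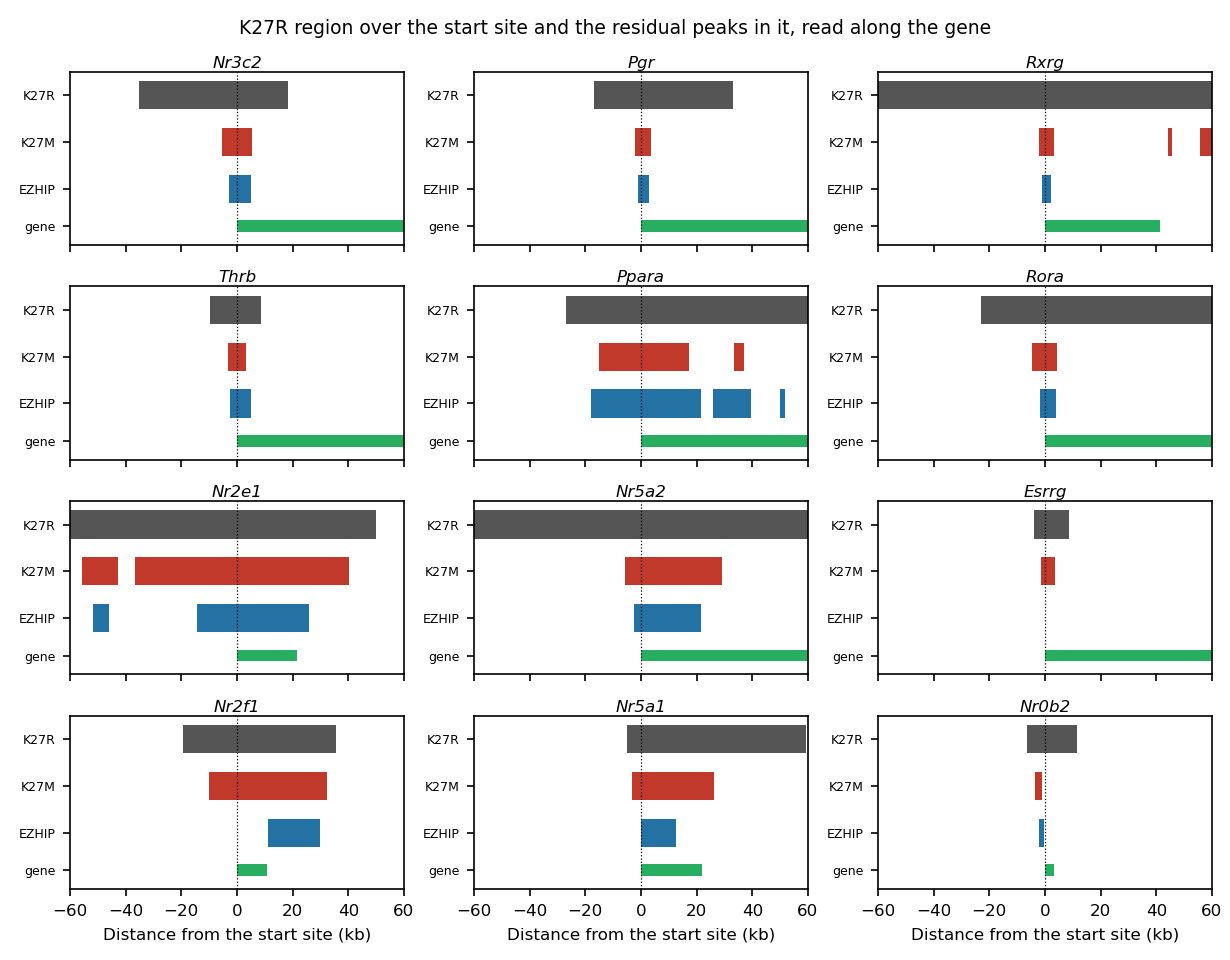
Intervals of the K27R region over the start site (grey) and of the K27M (red) and EZHIP (blue) peaks inside it, with the gene body (green), against the distance from the start site in kb, read along the gene, for 12 receptor genes and cut off at 60 kb on either side. Residual peaks straddle the start at Nr3c2, Pgr, Rxrg, Thrb and Rora, whereas the EZHIP peak lies beyond the gene at Nr2f1, begins just inside it at Nr5a1 and ends before it at Nr0b2.

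Of the 6 retinoid receptors, which bind retinoic acid and include the common partners of other receptors, 1 had a start site in any list. This was Rxrg, the retinoid X receptor gamma of muscle and brain. It lay in the widest K27R region of the 16, 425.4 kb, which also held the starts of Mgst3, Lrrc52 and Lmx1a, so the region cannot be assigned to Rxrg alone. Over the start itself the K27M peak was 5.2 kb (chr1:169526401-169531600) and the EZHIP peak 3.4 kb (chr1:169527401-169530800), the latter inside the former. K27M peaks numbered 6 in the region and EZHIP peaks 4, covering 13.8% and 6.96% of it. The nearest CpG island lay 33922 bp from the Rxrg start, so that neither peak over the start held an island, and the printed window held 10 CG dinucleotides.

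Rara, Rarb, Rarg, Rxra and Rxrb had 0 bp of the gene body in any list. The nearest K27R peak to the 5′ end lay 52.1 kb away for Rara, 221.2 kb for Rarb, 100.9 kb for Rarg, 48.2 kb for Rxra and 7.2 kb for Rxrb. Rarb encodes the retinoic acid receptor beta, whose inner promoter is a classical target of retinoic acid. The inner start (Rarb-202), 243.4 kb downstream of the 5′ end, lay in a CpG island and was likewise in no list. Its printed window held the sequence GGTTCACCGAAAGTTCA, from 57 to 41 bases before the start and on the strand of the gene, which is the hexamer GGTTCA, 5 bases, and the hexamer AGTTCA. Before 70018 distinct annotated starts of all genes, searched on both strands, 3 windows matched this arrangement. Among the 221 starts of the receptors 1 did, that of Rarb-202. The hexamers searched for are those of the Rarb promoter itself, so this match was fixed in advance. It says nothing about the receptors as a set.

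Thrb, the thyroid hormone receptor beta, was the member of the thyroid hormone and vitamin D group with a start site in peaks. Peaks over its 5′ start were 18.0 kb for K27R, 6.6 kb for K27M (chr14:18490201-18496800) and 7.4 kb for EZHIP (chr14:18491001-18498400). The residual peaks overlapped in part, sharing 5.8 kb, since the EZHIP peak began and ended further downstream. The start of Thrb-001, 320.7 kb into the gene, was in a K27R peak and in neither residual list, and that of Thrb-202 was in no list. Thra, the paralog that encodes the thyroid hormone receptor alpha, had no peak within 50 kb of its start, and Vdr, the vitamin D receptor, none within 20 kb. On chromosome 11, Thra, Nr1d1 and Rara form a neighbourhood without peaks in their gene bodies, in which the 3′ ends of Thra and Nr1d1 overlap on opposite strands. On chromosome 14, the 5′ end of Thrb lay 842.1 kb from that of Rarb and 578.2 kb from that of Nr1d2, and both neighbours were in no list.

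The 8 receptors for lipids, bile acids and xenobiotics included 3 with a start site in K27R peaks, and the 3 peroxisome proliferator-activated receptors fell into 3 classes. Ppara, the fatty acid receptor that drives hepatic oxidation, kept wide residual peaks. Its K27R region was 150.8 kb and covered the whole gene and the starts of 2210021J22Rik, Pkdrej and Ttc38. Over the start the K27M peak was 32.4 kb (chr15:85550401-85582800) and the EZHIP peak 39.6 kb (chr15:85547401-85587000), and Ppara was the gene of the 8 in which the K27M peak lay inside the EZHIP peak. EZHIP peaks covered 54.2% of the gene body and K27M peaks 30.9%. All 6 annotated starts were in EZHIP peaks and 5 in K27M peaks, the exception being Ppara-006 at 37.2 kb. Pparg, the master regulator of fat cell formation, had its 5′ start in a K27R region of 180.8 kb that reached from 67.4 kb before to 113.4 kb after the start. No residual peak lay anywhere in that region, and the nearest were 147.6 kb (K27M) and 145.2 kb (EZHIP) from the start. A CpG island of 1423 bp covered the Pparg start, whose window held the most CG dinucleotides of those printed. The other annotated start, Pparg-201 at 60.8 kb, was also in the K27R list alone. Ppard, which is expressed in many tissues, had no peak within 50 kb of its start in any list.

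Nr1i3, the constitutive androstane receptor, had its start at the edge of a K27R peak of 25.6 kb, which ended 2.9 kb after the start. The K27M and EZHIP peaks in that region, 4.2 and 1.8 kb wide, lay 16.1 kb and 17.5 kb upstream over the start of the neighbouring gene Pcp4l1. All 7 starts of Nr1i3 were in the K27R list and 0 in the residual lists. Of the oxysterol receptors, Nr1h2 (LXR beta) had a K27R peak of 135.0 kb that came within 2.5 kb of its start and did not reach the gene, and Nr1h3 (LXR alpha) had none within 50 kb. Nr1h4 (FXR), the bile acid receptor of liver and gut, had K27R cover over 1.04% of the gene, at its 3′ end. Nr1i2 (PXR), the xenobiotic receptor of the liver, had no peak within 50 kb. The class without a peak at the start therefore held receptors of liver and gut (Nr1h4, Nr1i2) as well as broadly expressed ones (Ppard, Nr1h2).

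The Rev-erb and Ror receptors compete for the same response elements in the circadian clock. Rora, an activator in this loop, had peaks of 85.4, 9.2 and 5.6 kb over its 5′ start in the K27R, K27M and EZHIP lists, with the EZHIP peak at chr9:68499801-68505400. Each residual list held 3 of its 6 starts, all within 1.5 kb of the 5′ end. The start of Rora-002, 635.9 kb downstream in a CpG island, was in a K27R peak alone. Rorb, a receptor of retina and brain, had a K27R peak of 14.0 kb over its 5′ start, no residual peak within 1272.5 kb, and 3 further starts at 110.1 kb that were in no list. Nr1d1 and Nr1d2, the Rev-erb repressors, had 0 bp of the gene body in any list.

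Among the 8 NR2 orphan receptors, Nr2e1 and Nr2f1 kept wide residual peaks. Nr2e1 (Tlx), a regulator of neural stem cells, was the gene with its whole body in peaks of all 3 lists. The peaks were 144.0 kb for K27R, 76.8 kb for K27M (chr10:42263201-42340000) and 40.4 kb for EZHIP (chr10:42277401-42317800), each inside the one before. The region also held the start of Ostm1 and 9 CpG islands. Nr2f1 (COUP-TFI), a patterning factor of the nervous system, was covered whole by a K27R peak of 54.6 kb and a K27M peak of 42.6 kb (chr13:78306601-78349200). In EZHIP cells a peak of 19 kb was called in the same K27R region, and it began 11.0 kb downstream of the start, beyond the 3′ end of this 10.8 kb gene. No base of Nr2f1 was in the EZHIP list, although 34.8% of the K27R region was. Its paralog Nr2f2 (COUP-TFII), a factor of mesenchyme and veins, was in no list, with a K27R peak of 1.6 kb at 2.2 kb upstream and no residual peak within 1879.6 kb. Nr2c1, Nr2c2, Nr2e3, Nr2f6 and Hnf4g had 0 bp of the gene body in any list, the nearest K27R peaks being 79.0, 10.4, 71.1, 29.1 and 241.0 kb from their starts.

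The NR4A receptors are immediate early genes that bind no known hormone, and none of the 3 had its 5′ start in a list. Nr4a1 had no peak in the gene body. Nr4a2 had a K27R peak over 11.4% of its body, at the 3′ end. Nr4a3 came closest, since a K27R peak of 79.0 kb began 376 bp after its start and covered 99.1% of the gene. An EZHIP peak of 4.0 kb lay from 1.4 to 5.4 kb after the Nr4a3 start, over the start of Nr4a3-004, and the nearest K27M peak was 76.0 kb from the start.

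Nr5a1 (SF-1) and Nr5a2 (LRH-1) are regulators of steroidogenic and liver or pluripotency genes. Nr5a2 lay whole in a K27R region of 180.0 kb, with a K27M peak of 34.8 kb and an EZHIP peak of 24.2 kb (chr1:138835401-138859600) inside it over both of its starts. Its 5′ start was 7.3 kb from the nearest CpG island, though each of these residual peaks held 2 islands. Nr5a1 lay whole in a K27R peak of 64.4 kb and a K27M peak of 29.6 kb (chr2:38543801-38573400). The EZHIP peak of 12.6 kb began 62 bp downstream of its 5′ start, less than the 200 bp bin of the lists, and covered 57.6% of the gene and 2 of its 4 starts. Nr5a1 was thus counted for K27M alone by less than 1 bin. The 3′ end of the next gene, Nr6a1 (GCNF), was 8.8 kb from Nr5a1. The K27R region ended 3.7 kb before Nr6a1, which had 0 bp in any list.

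Nr0b2 (SHP), a small receptor without a DNA-binding domain that dampens bile acid synthesis, lay whole in a K27R peak of 18.0 kb. An EZHIP peak of 1.8 kb ended 291 bp before its start and a K27M peak of 2.4 kb ended 1.1 kb before it. A tolerance of 1000 bp would place Nr0b2 in the EZHIP list, and one of 5000 bp in both residual lists. Of the 5 receptors in the K27R list alone, Pparg and Rorb had no residual peak anywhere in the K27R region over the start, while Esrrb, Nr1i3 and Nr0b2 did.

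**Figure D4:**
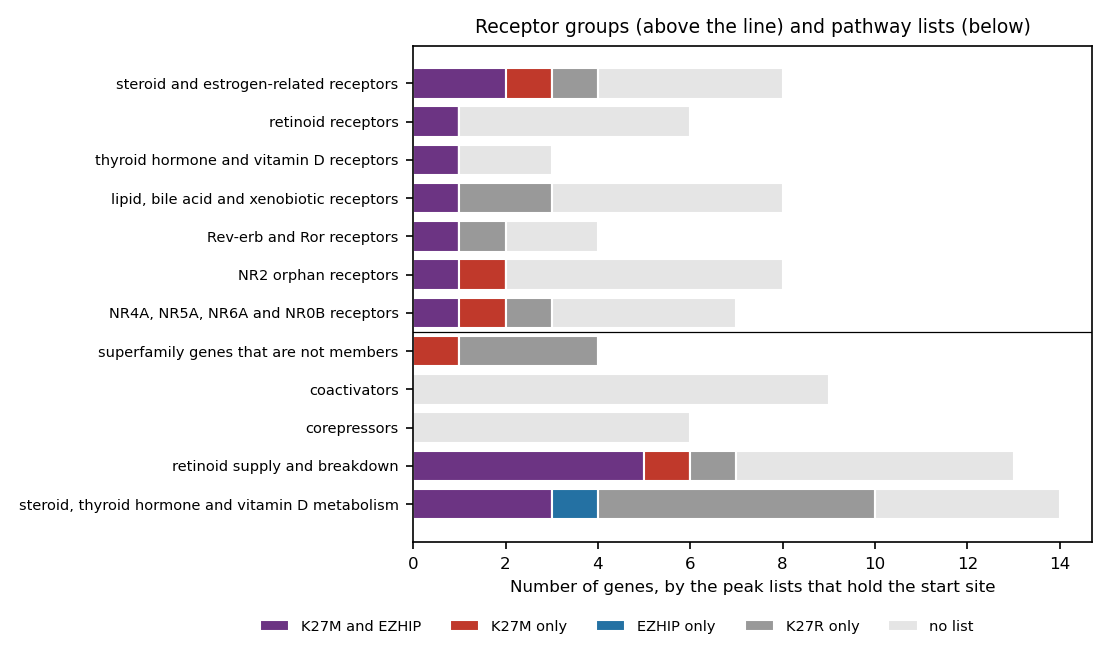
Number of genes in each of the 7 receptor groups and the 5 lists of related genes, by the peak lists that held the start site (purple for K27M and EZHIP, red for K27M only, blue for EZHIP only, dark grey for K27R only, pale grey for no list). Each receptor group held 1 or 2 genes in both residual lists, and the bars of the coactivators and corepressors were wholly pale.

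Across the 8 receptors with both residual peaks over the start, the EZHIP peak lay inside the K27M peak in 6, and the K27M peak was wider in those same 6. The EZHIP peak took up 52.6% of the K27M peak at Nr2e1 and 74.1% at Nr3c2, the lowest and highest shares of the 6. Ppara and Thrb were the exceptions. The ratio of K27R to K27M width ran from 1.88-fold at Nr2e1 to 81.8-fold at Rxrg. Rxrg, with the widest K27R region of the 8, had the narrowest K27M and EZHIP peaks over its start.

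Several receptors have more than 1 promoter, and the 44 genes had 221 distinct annotated starts. Of these, 67 were in K27R, 42 in K27M and 37 in EZHIP peaks. Starts of the same gene often lay in the same peak, and the share over all annotated starts is not given here. By any annotated start, 18 receptors were in K27R (31.7% of all genes were), 13 in K27M (9.70%) and 13 in EZHIP peaks (8.47%). The K27M and EZHIP counts, which differed by 5′ start, were then the same. The receptors gained for EZHIP were Esr1, Esrrb, Esrrg, Nr4a3 and Nr5a1, and those gained for K27M were Esr1 and Esrrb.

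Gene bodies gave a like count. At least 1 bp of 20 receptor genes was in K27R peaks (36.1% of all genes), of 13 in K27M peaks (11.5%) and of 13 in EZHIP peaks (10.6%). The receptor genes were longer than the rest, with a median length of 48.2 kb against 15.4 kb, and the part of gene length in these counts was not tested. The whole body was in K27R peaks for 8 of the 44 genes (Esrrb, Rxrg, Ppara, Nr2e1, Nr2f1, Nr5a1, Nr5a2 and Nr0b2), against 4486 of all 22350. In K27M peaks it was whole for 3 (Nr2e1, Nr2f1 and Nr5a1), against 621 of all genes. In EZHIP peaks it was whole for 1 (Nr2e1), against 407 of all genes. At least 50% of the body was covered in 13 receptor genes by K27R (26.2% of all genes), in 3 by K27M (4.29%) and in 3 by EZHIP (3.33%). Peaks in the body without the 5′ start were found in Esr1, Nr1h4, Nr4a2 and Nr4a3 for K27R, in Esr1 and Esrrb for K27M, and in Esr1, Esrrb, Esrrg, Nr4a3 and Nr5a1 for EZHIP.

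A CpG island lay over the start of 20 of the 44 receptors (45.5%, against 45.9% of all genes). By class, the start was in an island for 5 of the 8 receptors in both residual lists (63.4% of all genes of this class), 0 of the 3 in K27M and not EZHIP (55.8%), 1 of the 5 in K27R alone (22.9%) and 14 of the 28 in no list (50.5%). These classes are small, and each share but that of the 3 lay close to the share of all genes. The 5 with both residual peaks and an island over the start were Nr3c2, Thrb, Ppara, Rora and Nr2e1, and the 3 without were Pgr, Rxrg and Nr5a2. These calls concern the start base and not the whole peak. Each residual peak over the Pgr and Nr5a2 starts held 2 islands, and those over the Rxrg start held 0. The K27M peaks over the starts of Esrrg, Nr2f1 and Nr5a1 held 2, 5 and 2 islands. For Pgr an island lay 74 bp from the annotated start and for Nr2f1 3 bp, so that these 2 starts were called free of an island by short distances. Among receptors with a start in K27R peaks, an island at the start went with a K27M peak in 5 of 6 genes, Pparg being the exception (52.1% of all such genes), and its absence in 6 of 10 (17.8%). For EZHIP the counts were 5 of 6 (44.1%) and 3 of 10 (15.6%).

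**Figure D5:**
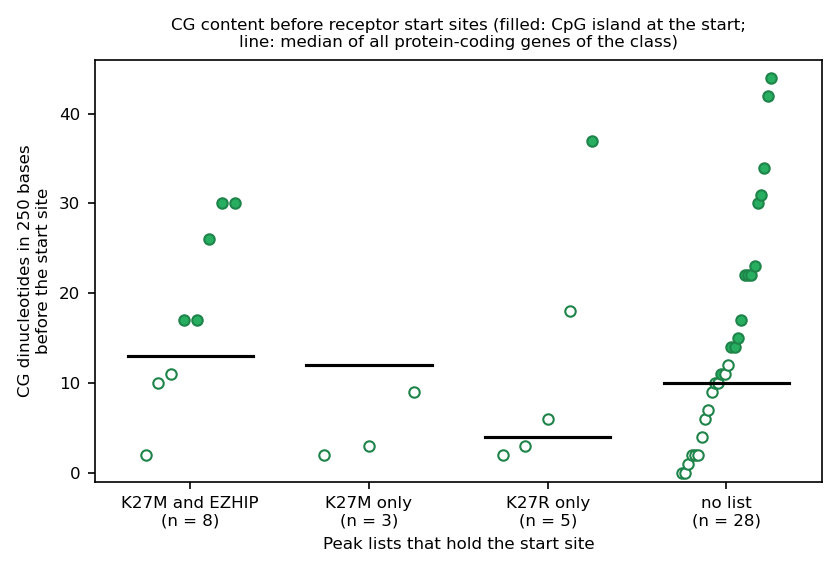
Number of CG dinucleotides in the 250 bases before the 5′ start (points, 1 per receptor gene, filled where a CpG island covered the start) by the peak lists that held the start, with a line at the median of all protein-coding genes of that class. The receptors in no list spanned 0 to 44, and Pparg, at 37, stood above the other genes of the K27R class.

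The 250 bases before the 5′ start of 22350 genes were searched on both strands for the hexamer AGGTCA and for pairs of hexamers. The direct repeats of AGGTCA contain the hexamer, so their matches are among its matches. AGGTCA was found before 7 receptors (15.9%, against 12.6% of all genes). These were Rarb, Rarg, Thrb, Vdr, Pparg, Nr1d2 and Nr5a2, of which 2 (Thrb and Nr5a2) were in both residual lists, 1 (Pparg) in K27R alone and 4 in no list. Direct repeats of AGGTCA with 1 base between the hexamers were found before 11 genes (0.0492%), those with 5 bases between before 1 gene, and GGTTCA followed after 5 bases by AGTTCA before 0 genes, and none of these stood before the 5′ start of a receptor. A match describes the letters of the window and not binding.

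The other genes of nuclear receptor signalling were taken from lists of 46 genes. Of these, 21 had a start site in K27R, 10 in K27M and 9 in EZHIP peaks. The shares over all protein-coding genes, to be set beside these and the counts below, were 30.1%, 9.02% and 7.73%. The 9 coactivators (such as Ncoa1, Med1 and Ep300) and 6 corepressors (such as Ncor1 and Hdac3), which receptors share, were in 0 lists. Genes of retinoid supply and breakdown were in K27R peaks in 7 of 13 cases, in K27M in 6 and in EZHIP in 5. Aldh1a2, which makes retinoic acid, had peaks of 326.0, 55.6 and 20.8 kb in the K27R, K27M and EZHIP lists, and Cyp26a1, which degrades it, had peaks of 8.0, 8.6 and 4.0 kb. Cyp26b1, another degrading enzyme, was in a K27R region of 323.4 kb and no residual peak. Genes of steroid, thyroid hormone and vitamin D metabolism were in K27R peaks in 10 of 14 cases, in K27M in 3 and in EZHIP in 4. Dio3, which inactivates thyroid hormone, Cyp24a1, which degrades vitamin D, and Cyp27b1, which activates it, were in both residual lists. Cyp17a1, a steroid hydroxylase, was in EZHIP and not K27M peaks. Steroid enzymes in K27R alone included Cyp11a1, Cyp19a1 (aromatase) and Hsd3b1. Further superfamily genes in these lists included Hnf4a, a liver receptor, in K27R alone and Nr0b1, a partner of Nr5a1, in K27R and K27M.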

How the data were processed

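H3K27me3 ChIP-Seq was made from MEFs by crosslinking, MNase digestion, sonication and immunoprecipitation. Spike-in chromatin from human or fly cells was added before the antibody. The authors mapped reads to mm9 with bowtie1 (Bowtie 1.0.0 in the submitters' processing notes), and broad peaks were called by the authors with MOSAiCS-HMM in each library. The deposited lists gave chromosome, start and end only, on a grid of 200 bp bins. The background library of the calls is not given in the sources used here. The study's methods state that regions up to 10000 bp apart were joined, but 10.8% (K27R), 12.6% (K27M) and 28.7% (EZHIP) of the gaps between neighbouring peaks were no longer than that, with shortest gaps of 0.0, 5.2 and 1.2 kb. How the peaks of each list were joined is therefore not known, and widths are those of the peaks as deposited.

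Peaks were intersected with 5′ ends, transcript starts and bodies of GENCODE vM1 genes, counting 1 bp as overlap. CpG islands were segments scored 17 for CG and -1 for other bases, above 200 bp in length, of 50% G+C or more and with CpG observed over expected above 0.6 (26799 islands, 20 chromosomes). Sequences are of mm9. Python 3.11.15, numpy 2.4.6, pandas 2.3.3 and matplotlib 3.10.9 were used. Tested on simulated data, the overlap functions differed from a count over single bases in 0 of 50 lists. In simulated sequence, 200 of 200 planted islands were found. Their background had its CG dinucleotides removed, so this checks the code and not its accuracy on mm9.

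The members and lists were chosen with earlier results of these data known. Every member was named by class. Peak positions or widths are given for members with a residual peak at or within 5000 bp of the start or in the body, and for the widest and narrowest K27R regions without one. Sequences by rule were those of Nr2e1, Ppara, Rarb, Esrrb and Pparg at the 5′ start, and those of Rxrg, Esrrg and Rarb-202, and the motif search before all starts, were added after values were seen. Groups came from sample titles. No test was made, because each group has 1 library.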

Additional observations from a re-analysis of the deposited data

How the results depend on the processing

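The 5 counts of start sites were recomputed with any annotated transcript start, a peak within 1000 or 5000 bp of the start, peaks of at least 2000 or 5000 bp, and peaks up to 10000 bp apart merged. Gene body counts were recomputed with 50% cover, peaks of at least 5000 bp and merging, median widths with the last 2 of these, and the count of CpG islands with islands of at least 500 bp and within 1000 bp. Of 47 alternatives over 12 results, 42 were within 1.5 times the reported value. The number of receptors with a start in EZHIP peaks was 13 by any annotated start and 8 by the 5′ end. With at least 50% of the gene body covered, counts were 13 for K27R (20 by 1 bp), 3 for K27M (13 by 1 bp) and 3 for EZHIP (13 by 1 bp), a stricter limit by construction. With peaks of at least 5000 bp, Pgr and Rxrg left the class with both residual peaks, and the median EZHIP width was 16.1 kb in place of 7.7 kb, over fewer genes by construction. The alternative with a stricter score was not run, because the lists hold no score. No paired analysis was possible because each group has 1 library. Depth is unknown, so a missing peak cannot be told apart from a library too shallow to show it, and no value was set against the spread between replicates.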
